A study of Mus musculus with 81 samples.

Results

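ORR1A elements are copies of a long terminal repeat (LTR) retrotransposon of the ERVL-MaLR superfamily. They were taken from the deposited mouse endogenous retrovirus (mERV) tables as every locus whose RepeatMasker species name begins with ORR1A, which gave 40671 of 970384 LTR loci, or 4.19%, and 4.47% of all LTR bases. The rule used only the name and no measured value. The loci fall into 10 species of the 680 in the tables. The LTR forms are ORR1A0 with 2127 loci, ORR1A1 with 4390, ORR1A2 with 14809, ORR1A3 with 4375 and ORR1A4 with 7777. Each has an internal form, written -int, and these hold 454, 858, 2131, 2424 and 1326 loci in the same order. Together they cover 14.3 Mb, with a median length of 319 bases. A locus counted as outside genes where it overlapped no gene of the GENCODE vM21 annotation (GRCm38), and 26474 ORR1A loci (65.1%) were of this kind, while 13280 (32.7%) lay in introns and 917 (2.25%) overlapped exons. The corresponding shares over all LTR loci were 64.5%, 33.0% and 2.48%.

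LTR retrotransposons copy themselves through an RNA intermediate. An intact element has an internal part between a pair of LTRs, and recombination between these LTRs leaves a solitary LTR behind. The LTR carries the promoter and the polyadenylation signal of the element. MaLR elements, to which the ORR1 and MT families belong, encode no proteins of their own. Some of their LTRs serve as promoters of host transcripts in mouse oocytes and early embryos, and in fetal male germ cells many retrotransposons become remethylated and silenced before birth.

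The study followed tributyltin (TBT), an organotin compound that activates the nuclear receptors PPARγ and RXR, over generations. All mice were OG2 animals on a C57BL/6J background, whose transgene drives EGFP from the Pou5f1 (Oct4) regulatory region in germ cells. F0 dams drank water with 50 nM TBT or with the DMSO vehicle, and testes were collected at E18.5 from F1 fetuses, exposed in utero, and from F3 fetuses, bred onward without further exposure. EGFP-positive germline cells were sorted into populations P4 and P5 by side scatter, and EGFP-negative cells formed the somatic population P6, which is a mixture of cell types. RNA was measured in 62 libraries, made with oligo-dT priming by a method that does not mark strand. F1 had 5 DMSO and 7 TBT libraries of P4, 4 and 7 of P5, and 5 and 7 of P6. F3 had 4 DMSO and 5 TBT libraries of each population. Methylated DNA captured with a methyl-CpG-binding domain (MBD) was measured in P6 cells only, in 3 DMSO and 4 TBT libraries of F1 and 5 and 7 of F3. The labels do not say which fetus or litter gave a library, so p-values measure the spread between these libraries. Titles of the F1 germline libraries carry prefixes nested in exposure, 43, 44 and 48 in DMSO and only 45 and 47 in TBT. What a prefix marks is not said, and the fits took libraries that share one as independent.

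To show what these elements look like, the first 300 bases of 1 element per LTR subtype follow, read from GRCm38. Elements outside genes and 250 to 400 bases long were searched, though not on every chromosome. For each subtype the element shown is the one among these with the highest mean RNA level over the 6 populations. The tables give no strand, so each was turned to line up with the ORR1A0 element, which is printed as the plus strand reads; the other 4 are minus-strand sequences. Capitals mark matches to TATAAA, the core of a TATA box, to AATAAA, the polyadenylation hexamer, and to AGGTCA, the nuclear receptor half-site. Matches on the opposite strand, where the reverse complement is printed, are also in capitals. The elements lie at chr10:88830653-88830952, chr2:175254020-175254319, chr2:170670947-170671246, chr17:15907330-15907629 and chr13:74551851-74552150, in the order of the subtypes.
ORR1A0: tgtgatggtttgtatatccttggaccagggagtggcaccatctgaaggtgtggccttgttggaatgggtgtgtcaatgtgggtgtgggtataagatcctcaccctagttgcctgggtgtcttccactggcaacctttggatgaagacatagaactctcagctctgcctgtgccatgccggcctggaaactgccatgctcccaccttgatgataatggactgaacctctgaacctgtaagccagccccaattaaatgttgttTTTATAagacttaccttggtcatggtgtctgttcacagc
ORR1A1: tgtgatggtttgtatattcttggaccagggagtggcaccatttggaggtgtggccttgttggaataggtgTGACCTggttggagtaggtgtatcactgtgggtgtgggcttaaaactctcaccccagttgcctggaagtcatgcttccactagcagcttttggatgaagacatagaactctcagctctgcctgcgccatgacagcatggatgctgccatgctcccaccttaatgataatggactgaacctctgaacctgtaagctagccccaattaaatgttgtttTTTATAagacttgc
ORR1A2: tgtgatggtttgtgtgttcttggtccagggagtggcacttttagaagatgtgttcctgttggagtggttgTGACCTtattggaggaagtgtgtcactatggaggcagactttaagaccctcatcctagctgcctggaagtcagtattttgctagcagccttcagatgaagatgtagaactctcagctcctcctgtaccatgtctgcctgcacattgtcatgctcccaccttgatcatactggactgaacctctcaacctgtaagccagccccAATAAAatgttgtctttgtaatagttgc
ORR1A3: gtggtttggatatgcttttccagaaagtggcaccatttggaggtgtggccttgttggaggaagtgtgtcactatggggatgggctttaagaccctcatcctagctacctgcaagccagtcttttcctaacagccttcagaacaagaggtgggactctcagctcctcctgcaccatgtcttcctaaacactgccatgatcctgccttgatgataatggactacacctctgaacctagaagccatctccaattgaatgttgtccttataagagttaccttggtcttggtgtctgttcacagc
ORR1A4: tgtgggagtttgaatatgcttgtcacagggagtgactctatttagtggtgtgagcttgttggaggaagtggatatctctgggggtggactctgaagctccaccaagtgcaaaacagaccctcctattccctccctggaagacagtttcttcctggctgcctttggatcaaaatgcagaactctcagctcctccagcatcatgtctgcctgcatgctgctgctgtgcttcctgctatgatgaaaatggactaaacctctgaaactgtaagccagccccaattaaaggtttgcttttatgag

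In a global alignment over their whole length, the ORR1A1, ORR1A2, ORR1A3 and ORR1A4 elements matched the ORR1A0 element at 84.7%, 77.7%, 75.8% and 68.5% of positions. None of these 5 holds more than 1 CpG. The ORR1A1 element illustrates a limit of short reads, since 100% of its 75-base words, 75 bases being the read length, also occur in another ORR1A locus. The share was 24.7% for the ORR1A0 element, 6.99% for ORR1A2, 0 for ORR1A3 and 47.6% for ORR1A4.

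Across all LTR elements of 250 to 400 bases, the subtypes formed a series in sequence. CpG sites per 100 bases were 0.242 in ORR1A0 (1877 elements), 0.290 in ORR1A1 (3463), 0.359 in ORR1A2 (11686), 0.398 in ORR1A3 (3076) and 0.424 in ORR1A4 (5664). The other LTR species together had 0.857, but MTA had 0.251, ORR1B 0.494 and ORR1C 0.524. All 5 subtypes thus lay below the pooled value of the other species and MTA lay within their range, and 42.0% of ORR1A0 and 28.5% of ORR1A4 elements held no CpG at all, against 33.0% of MTA and 18% of the other LTR species. The share of 75-base words found in another ORR1A locus fell along the same series, from 42.6% in ORR1A0 through 20.8%, 7.31% and 4.31% to 2.20% in ORR1A4. ORR1A0 copies thus shared the most such words and ORR1A4 copies the fewest, although the printed ORR1A4 element lies far above the share of its subtype.

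Motifs were searched on both strands in the same elements. TATAAA was found in 82.7% of ORR1A0, 63.5% of ORR1A1, 37.1% of ORR1A2, 25.6% of ORR1A3 and 49.5% of ORR1A4 elements, and in 24.7% of the other LTR elements. AGGTCA was found in 86.4%, 54.2%, 9.02%, 14.8% and 14.1%, against 23.4%. The half-site was thus common in ORR1A0 and ORR1A1 and less common than in other LTRs in the 3 remaining subtypes. MTA elements held it in 85.1%, and ORR1B, ORR1C and ORR1D elements in 13.8% to 15.2%. Its direct repeat with a 1-base spacer, the DR1 arrangement that PPARγ with RXR binds, was found in 0 ORR1A elements and in 0.0220% of the others. AATAAA was present in 8.26% to 14.8% of the elements of each subtype, against 46.4% of the other LTRs. These are matches of letters, and binding was not measured.

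ORR1A loci received 3.92% to 4.93% of the reads at LTR loci in the 62 libraries, with a median of 4.44%, close to their 4.19% of loci. The medians by population were 4.39%, 4.46% and 4.49% in F1 P4, P5 and P6, and 4.35%, 4.47% and 4.45% in F3. The depth at LTR loci ranged from 246520 to 8161548 reads, and ORR1A reads ranged from 12147 to 364750 per library. Between 812 and 11795 ORR1A loci had a read in a given library, and 27135 had one in at least 1 library. The levels below are CPM, read counts scaled to a common library size, after the authors' trimmed mean of M-values (TMM) scaling, on which 1 read is worth 0.129 to 0.957. Germline and somatic tables, and those of F1 and F3, were normalized separately, so levels set across them carry no test.

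Most ORR1A reads came from elements inside genes. The share from intronic elements had a median of 90.9% over the libraries, although introns hold 32.7% of the loci. An intronic ORR1A element of 1 to 100 bases had a mean of 3.25 CPM in F1 P4, and one of 1001 to 2500 bases had 3.94 CPM, so the level hardly followed the length of the element. Outside genes the same classes had 0.00743 and 0.0718 CPM. In F3 P6 the intronic means were 2.80 and 3.51 CPM, and those outside genes were 0.00412 and 0.161 CPM.

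**Figure D1:**
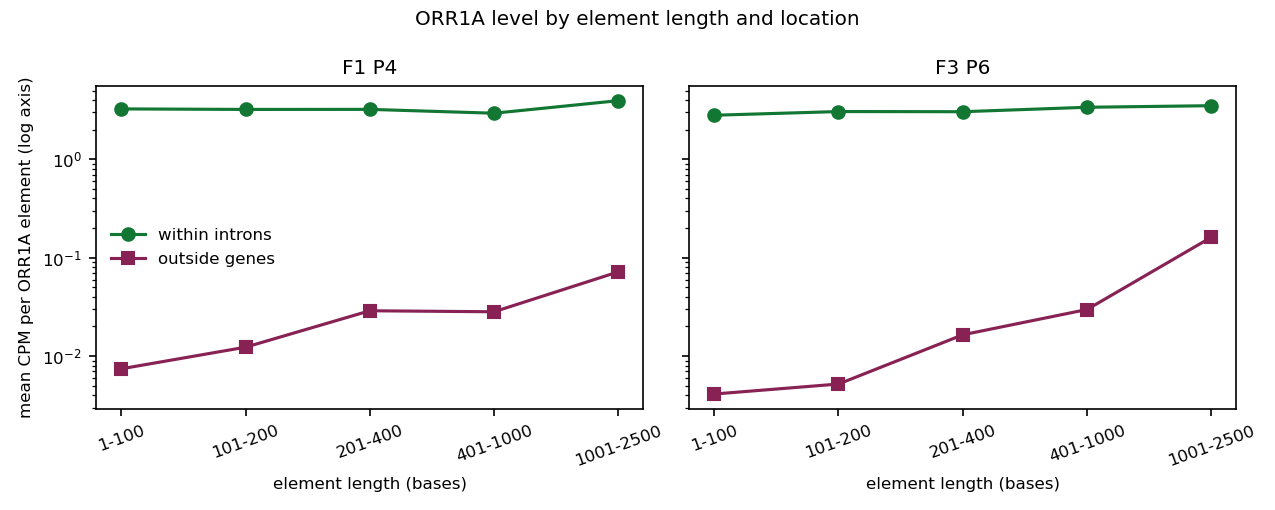
Mean CPM per ORR1A element (log axis) against element length in bases, in F1 P4 and F3 P6 cells, with intronic elements as circles and elements outside genes as squares. Intronic means stay near the same level, from 3.25 to 3.94 CPM between the shortest and the longest class in F1 P4, while those outside genes lie lower and are highest in the longest class.

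Intronic elements also carried values that were the same, library by library, as those of another tested LTR locus. This held for 71.8% of the tested intronic ORR1A loci in F1 P4, 35.2% in F1 P5, 44.3% in F1 P6, and for 73.6%, 35.4% and 39.9% in the F3 populations in the same order, and the match lay in the same gene for 71.7%, 35.1%, 44.1%, 73.1%, 34.4% and 39.7%. Over all tested intronic LTR loci the shares with such a match were 71.9%, 39.9% and 48.8% in F1 and 72.6%, 38.5% and 44.1% in F3, so ORR1A lay near them. Outside genes the shares were 1.61%, 2.06%, 1.92%, 17.4%, 15.9% and 1.27%. A pair in introns of Med15, a Mediator subunit, shows what this looks like. The ORR1A2 element at chr16:17701608-17701860 and the ORR1A4 element at chr16:17716315-17716635 both had 7.19, 9.05 and 10.7 CPM as the lowest, median and highest value in F1 P4. In F1 P5 both had 3.04, 4.77 and 6.87 CPM. A level of the element itself and a level of its host gene's transcript cannot be told apart at such loci, and the account therefore turns to the 26474 elements outside genes.

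Reads outside genes made up a small and variable part of the ORR1A reads. In F1 the lowest, median and highest share was 1.19%, 1.55% and 1.85% in P4, 2.91%, 4.49% and 6.37% in P5, and 0.998%, 1.5% and 7.58% in P6. In F3 the values were 1.48%, 2.25% and 10.2% in P4, 4.91%, 8.84% and 28.2% in P5, and 1.08%, 1.32% and 1.64% in P6. All F1 P5 libraries lay above all F1 P4 libraries, whereas the F3 ranges overlapped. Over all LTR loci the median shares outside genes were 2.19%, 5.29%, 1.5%, 3.22%, 11.2% and 1.34% in the same order, so the pattern was not limited to ORR1A.

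Some libraries stood apart. TBT libraries 7 and 8 of F1 P6, TBT libraries 5 and 9 of F3 P4, and DMSO libraries 1 and 2 with TBT library 5 of F3 P5 had the highest shares outside genes of their groups, and the F3 ones also had the fewest reads. LTR loci in 9 of 12 germ cell marker genes summed to between 12608 and 22206 CPM in F1 P4, between 9211 and 17315 CPM in F1 P5, and between 24.2 and 48 CPM in F1 P6. Loci in 6 of 8 Sertoli cell genes summed to between 1060 and 1450 CPM in F1 P6, to at most 86.6 CPM in F1 P4 and to at most 145 CPM in F1 P5. Leydig and interstitial genes were less clearly separated. The 6 loci in 4 of the 7 genes of that list summed to between 200 and 427 CPM in F1 P6, to 8.01, 95.2 and 207 CPM (lowest, median, highest) in the DMSO libraries of F1 P4, and to 5.55, 12.3 and 37.3 CPM in its TBT libraries. In the other germline groups they reached at most 56.2 CPM. Loci in the 5 endothelial and blood genes summed to 45.1 to 153 CPM in F1 P6 and to at most 59.9 CPM in any germline group. The germ cell sum was as low as 1280 CPM in a TBT library of F3 P4 and 142 CPM in a TBT library of F3 P5. It was 14.4 to 242 CPM in the DMSO libraries of F3 P6, against 17.4 to 22.8 CPM in the TBT libraries. In these bulk samples, fewer cells of a type and less RNA per cell cannot be told apart, and the part of depth and cell makeup in the results was not tested.

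**Figure D2:**
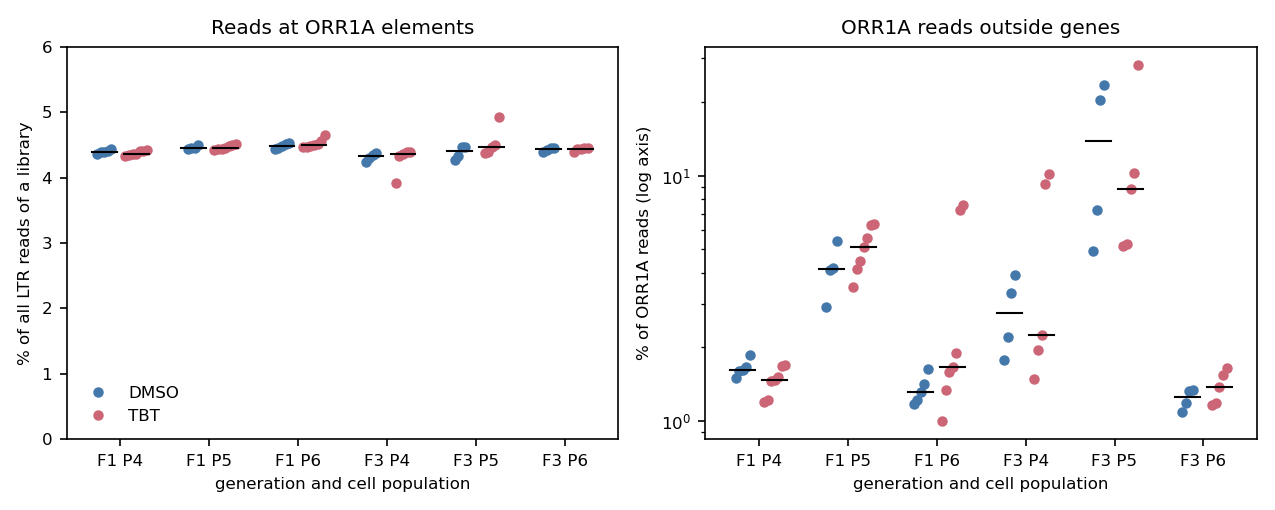
Share of LTR reads in ORR1A loci and share of ORR1A reads outside genes, in percent, with 1 point per RNA library and a bar at the median of each group, by generation, population and F0 exposure. The first share stays between 3.92% and 4.93%, while the second reaches 28.2% in a TBT library of F3 P5.

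Summed over all ORR1A loci outside genes, F1 P4 libraries had 533, 733 and 836 CPM (lowest, median, highest of 12) and F1 P5 libraries 1252, 1780 and 2727 CPM (n = 11). F1 P6 libraries had 441, 697 and 3353 CPM (n = 12), where TBT libraries 7 and 8 had 3300 and 3353 CPM and the next highest 856 CPM. In F3 the sums were 779, 1247 and 3212 CPM in P4, 2285, 3642 and 8761 CPM in P5, and 481, 581 and 719 CPM in P6 (n = 9 each). By the median P5 was the highest population in both generations, although the 2 highest F1 sums were those of P6. P5 and P4 did not overlap in F1 and overlapped in F3.

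Levels per length allow the subtypes to be compared. In F1 P4 the ORR1A3 LTR stood highest, at 129 ± 17.5 CPM per Mb of element (SD, n = 12), followed by ORR1A4-int at 107 ± 21.1, ORR1A2 at 95.7 ± 14.6 and ORR1A4 at 89.4 ± 11.6. The lowest were ORR1A2-int at 27.3 ± 9.65, ORR1A1-int at 27.5 ± 11.7 and ORR1A0-int at 31.0 ± 18.8. The neighbours in this order lay within their spread, while the highest and the lowest were well separated. A single locus held 49.8% of the ORR1A4-int reads outside genes, and without it ORR1A4-int had 54 ± 13.5 CPM per Mb, where ORR1A2 and ORR1A4 without their own highest locus had 73 and 83.3. Over all ORR1A the level was 76.3 ± 9.45 CPM per Mb, against 106 ± 11.4 for all LTR loci outside genes.

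In F1 P5 every subtype was higher, from 147 ± 35.5 CPM per Mb for ORR1A1-int to 285 ± 64.2 for ORR1A3 (n = 11). In the somatic cells of F3 ORR1A0-int had 189 ± 37.2 CPM per Mb and ORR1A4-int 184 ± 24.6, which lay within their spread, followed by ORR1A3 with 98.0 ± 10.1 and ORR1A0 with 95.9 ± 17.5 (n = 9). ORR1A2-int was lowest there at 21.2 ± 5.22. In F1 P6 ORR1A4-int had 243 ± 97.1 and ORR1A0-int 202 ± 78.8 CPM per Mb (n = 12), and without TBT libraries 7 and 8 they had 203 ± 30.1 and 170 ± 25.8. ORR1A0-int, among the lowest subtypes of F1 P4, was thus at the upper end in P6 of both generations, within its spread of ORR1A4-int. Few elements decided some of these somatic levels: the 3 highest loci held 78.2% of the ORR1A4-int reads outside genes in F3 P6, 69.8% of ORR1A3 and 65.1% of ORR1A3-int.

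**Figure D3:**
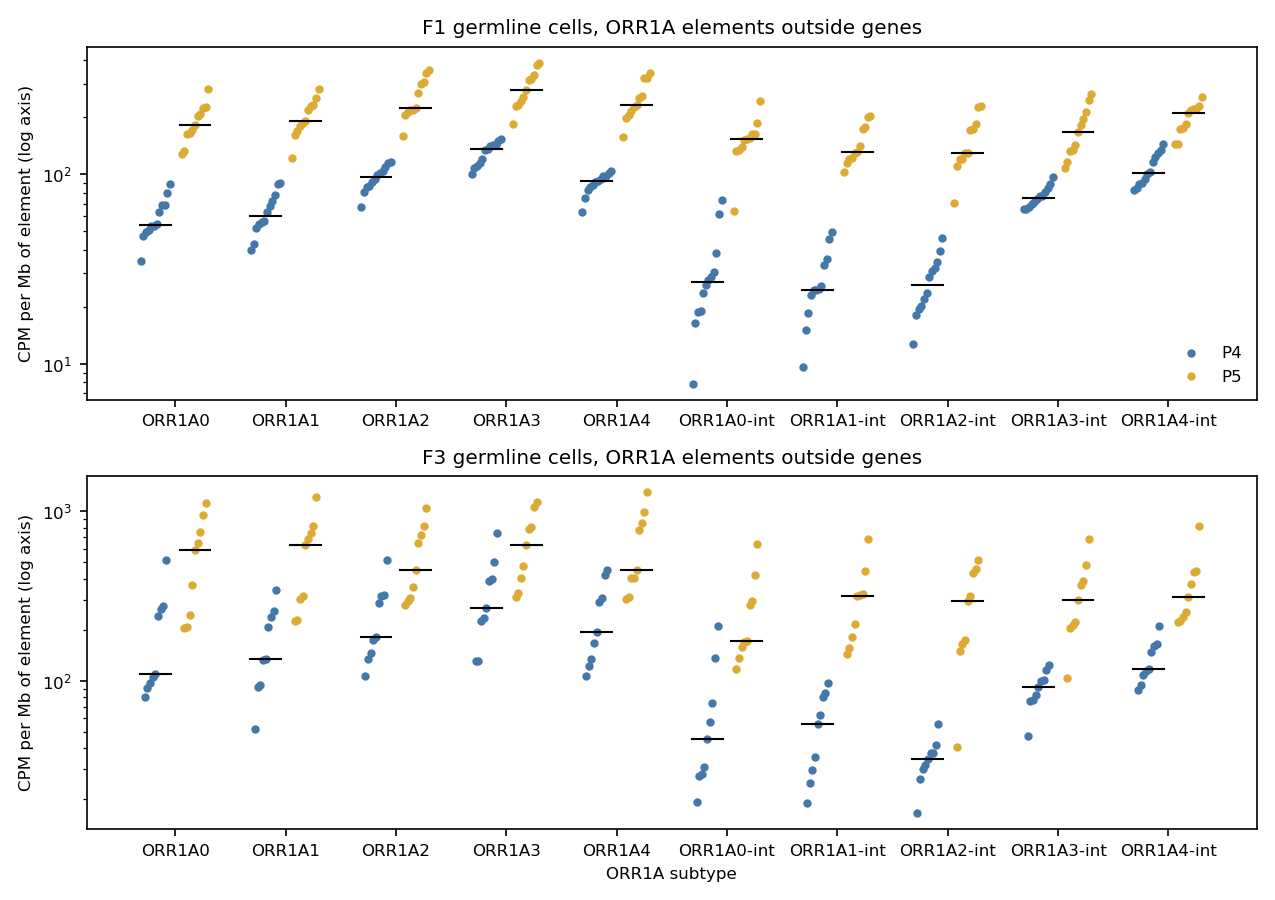
Level of ORR1A elements outside genes by subtype, in CPM per Mb of element on a log axis, with 1 point per library of the germline populations P4 and P5 and a bar at the median, for F1 and F3. The median of P5 lies above that of P4 for every subtype in both generations, with overlapping libraries in F1 in ORR1A0-int and ORR1A4-int.

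ORR1A as a whole can be set beside its relatives by name. All ORR1A had 76.3, 215 and 116 CPM per Mb outside genes in F1 P4, P5 and P6, and 178, 486 and 62.4 in F3. ORR1B had 74.2, 190 and 82.7 in F1 and 197, 458 and 31.2 in F3. In F1 P6, TBT libraries 7 and 8 had 353 and 359 for ORR1A against 47.1 to 91.6 in the other 10, and without these 2 libraries ORR1A had 68.6 ± 13 and ORR1B 38 ± 13.2 CPM per Mb. ORR1C, ORR1D and ORR1E had 21.0, 27.9 and 34.9 CPM per Mb in F3 P6, below the 62.4 ± 8.5 of ORR1A, and MTA had 62.0. These family levels are given side by side without a test.

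Single loci outside genes showed where the reads were. The highest per kb of element in P4 and P5 of both generations was the ORR1A2 element printed above (chr2:170670901-170671246, 346 bases, 8436 bases from Gm14264). Its lowest, median and highest values were 33.7, 59.8 and 89.9 CPM in F1 P4, 28.5, 47.2 and 78.8 CPM in F1 P5, and 1.04, 3.81 and 9.64 CPM in F1 P6. In F3 they were 58.9, 128 and 463 CPM in P4, 35.6, 83.5 and 282 CPM in P5, and 0.368, 2.38 and 3.31 CPM in P6. Every germline library lay above every somatic library in both generations. Between P5 and P4 the log2 difference was -0.23 in F1 (SE 0.15, limma adjusted p = 0.243) and -0.91 in F3 (SE 0.51, adjusted p = 0.584), so neither passed the test.

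A pair of ORR1A3 elements also had reads in every F1 germline library. The printed one at chr17:15907317-15907629, 60689 bases from the pseudogene Eif3s6-ps3, had 9.24 to 26.6 CPM in F1 P4 and 9.39 to 19.8 CPM in F1 P5, and 0 in all P6 libraries of both generations. The one at chr3:70132776-70133096, 16244 bases from Gm37585, had 6.91, 11 and 19.6 CPM in F1 P4 and 5.11, 6.89 and 16.8 CPM in F1 P5. The latter fell by 0.53 on the log2 scale from P4 to P5 in F1 (SE 0.19, limma adjusted p = 0.0284), although the groups overlapped. The next in F1 P5 was an ORR1A3 element of 136 bases at chr4:146066412-146066547, 1205 bases from Gm13034, with 0 to 2.79 CPM in F1 P4 and 1.89 to 10.7 CPM in F1 P5 (log2 difference 2.78, SE 0.42, adjusted p = 3.49e-06). It was named for its level in P5, so this difference is given as a value.

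The other places among the 3 highest loci of F3 P5 were taken by an ORR1A3 element on chromosome 18, with 0, 12.2 and 111 CPM there, and by the printed ORR1A0 element near Utp20 (3849 bases away). The latter had 1.92, 6.21 and 13.5 CPM in F1 P4, 3.91, 9.57 and 14.5 CPM in F1 P5 and at most 1.92 CPM in F1 P6. Its P5 to P4 difference in F1 was 0.62 on the log2 scale (SE 0.22, limma adjusted p = 0.0279), with overlapping groups.

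In the somatic cells other loci led. An ORR1A3 element at chr7:122223566-122223920, 742 bases from Chp2, had 33.4, 39.0 and 55.5 CPM in F1 P6 and 19.6, 34.3 and 47.4 CPM in F3 P6. In F1 P4 it had at most 2.37 CPM. An ORR1A4-int element at chr13:74552151-74553291, which adjoins the printed ORR1A4 LTR and lies 619 bases from Gm47469, had 49.0, 71.2 and 106 CPM in F1 P6 and 53.3, 68.1 and 84.9 CPM in F3 P6. It was not limited to somatic cells, since F1 P4 had 23.5, 34.3 and 51.7 CPM. The third was an ORR1A3-int element at chr13:74508223-74508577, 1021 bases from Gm47467, with 17.1, 23.6 and 33.2 CPM in F1 P6 and 13.8, 20.2 and 30.8 CPM in F3 P6. In F1 P4 it had 3.47, 5.70 and 7.85 CPM, so the ranges of these populations did not overlap.

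**Figure D4:**
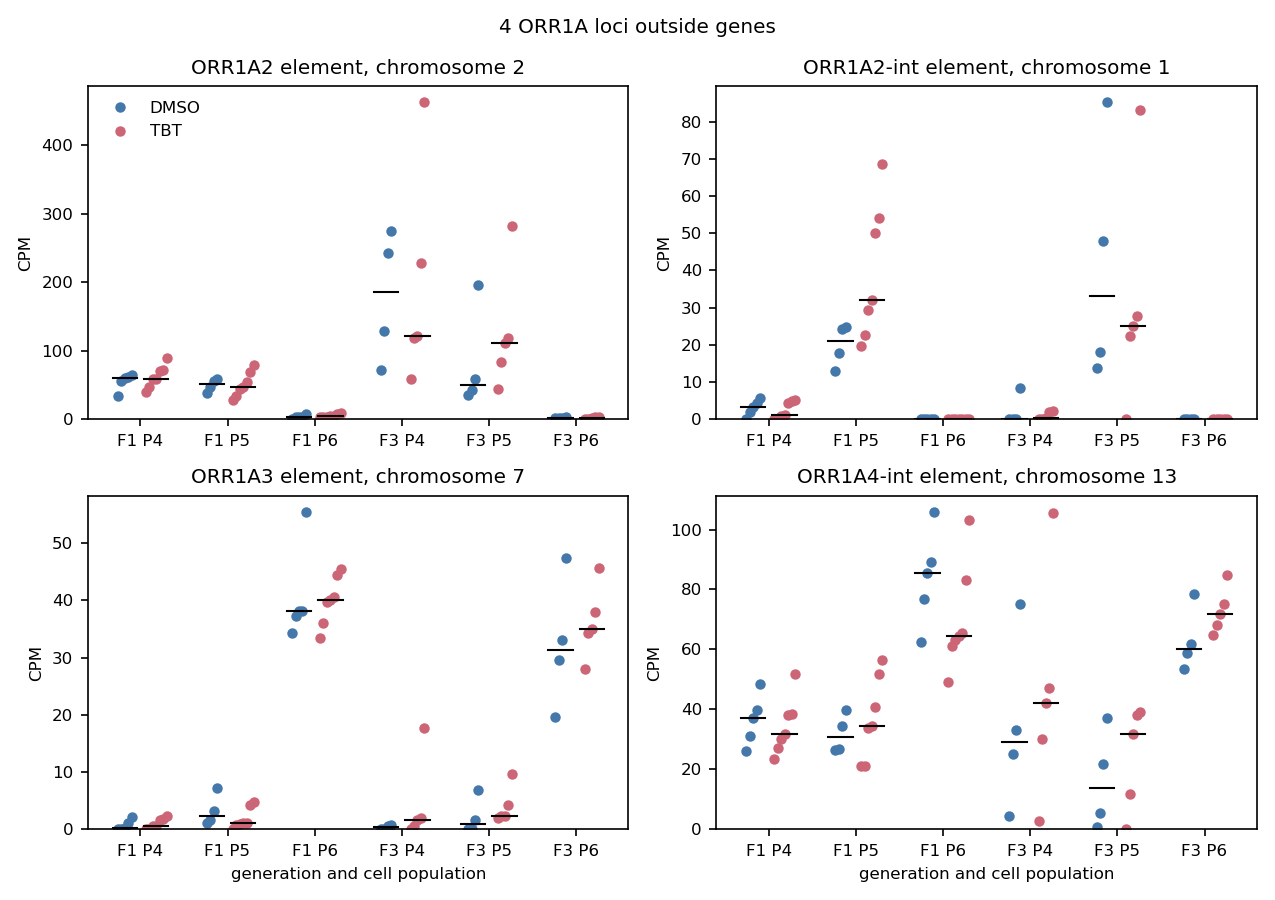
CPM of 4 ORR1A loci outside genes, with 1 point per RNA library and a bar at the median of each group, by generation, population and exposure. The ORR1A2 locus on chromosome 2 is at most 9.64 CPM in P6 and at least 28.5 CPM in the germline, the ORR1A3 locus on chromosome 7 is high in P6, and the ORR1A2-int locus on chromosome 1 has reads in germline libraries and 0 in P6.

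Germline P5 was compared with P4 over both exposures. When all loci of a species were summed, the subtypes changed little in F1. ORR1A0-int was higher by 0.30 on the log2 scale (SE 0.038, limma adjusted p = 5.37e-07) and ORR1A4-int by 0.16 (SE 0.029, adjusted p = 5.2e-05). The other 6 changed subtypes were lower, between -0.26 for ORR1A1 (SE 0.036, adjusted p = 1.79e-06) and -0.12 for ORR1A2-int and ORR1A4, and ORR1A0 and ORR1A1-int did not pass. This gave 8 of 10 subtypes called at a false discovery rate of 0.05, beside 424 of 664 species (63.9%; 22.9% higher and 41% lower). The direction depended on the scaling, since rescaling each library to a common total moved the median over all species from -0.067 to 0.084 and gave 7 subtypes higher and 2 lower, beside 47.3% of all species higher and 17.6% lower. In F3 none of the 10 passed in limma, where the smallest adjusted p was 0.232, for ORR1A0-int (log2 difference 0.66, SE 0.25), and 18 of 662 species (2.72%) did. There 1 subtype had an unadjusted p under 0.05, beside 11.3% of all species, and the edgeR quasi-likelihood test called 5, beside 20.1%.

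The same totals restricted to loci outside genes gave larger differences, all in 1 direction. All 10 subtypes were higher in P5 in F1, from 0.82 (SE 0.12, limma adjusted p = 2.11e-07) for ORR1A4-int to 2.42 (SE 0.20, adjusted p = 1.16e-12) for ORR1A1-int on the log2 scale. ORR1A2-int, for example, had 15.6, 32.1 and 56.5 CPM in F1 P4 and 86.3, 160 and 280 CPM in F1 P5, with no overlap, a 5.18-fold difference (log2 2.37, SE 0.18, adjusted p = 2.89e-13). The internal parts of ORR1A0, ORR1A1 and ORR1A2 had log2 differences between 2.32 and 2.42, the other internal parts had 1.06 for ORR1A3-int and 0.82 for ORR1A4-int, and the 5 LTR forms lay between 1.07 and 1.63. In F3 all 10 were again higher, from 1.06 for ORR1A3 (SE 0.38, adjusted p = 0.0174) to 2.79 for ORR1A2-int (SE 0.40, adjusted p = 3.33e-06). There ORR1A2-int had 20.4, 42.4 and 68.0 CPM in P4 and 49.7, 360 and 629 CPM in P5, so the groups overlapped. Of all species, 553 of 589 (93.9%) passed in F1 with a median difference of 1.31, and 355 of 603 (58.9%) in F3 with a median of 1.42. A shift of LTR loci outside genes as a whole thus accompanied that of ORR1A, and whether any subtype moved more than other species was not tested. The cell type marker sums differed between the populations as well. Median germ cell sums in DMSO and TBT were 14800 and 16977 CPM in F1 P4 and 9576 and 10984 CPM in F1 P5, and 12473 and 14976 CPM in F3 P4 and 7410 and 7857 CPM in F3 P5, lower in P5 each time. In F1 the median Sertoli sums were 26.1 and 26.0 CPM in P4 and 86.8 and 43.5 CPM in P5, higher in P5. The endothelial and blood medians were 13.9 and 17.7 CPM in P4 and 34.8 and 30.9 CPM in P5, also higher. Within that list Pecam1 had medians of 10.7, 24.9 and 9.09 CPM in F1 P4, P5 and P6, and Cdh5 2.12, 3.80 and 88.3 CPM. Leydig and interstitial medians were 95.2 and 12.3 CPM in P4 and 37.1 and 25.5 CPM in P5, lower in DMSO and higher in TBT. The part of these marker sums in the difference outside genes was not tested.

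Locus by locus, 1749 of the 4384 ORR1A loci tested in F1 differed between P5 and P4, 853 higher and 896 lower, beside 37851 of 101401 loci (37.3%), 17% of the tested loci being higher and 20.3% lower. With a common library total the split was 971 higher and 473 lower. Only 52 to 696 of the 26474 ORR1A loci outside genes reached the minimum mean of 5 reads in a population. In F1 these were 62 loci in P4 and 339 in P5, and in F3 247 and 696. A locus tested here needed that mean over P4 and P5 together, so many outside genes were tested because P5 was high, and no count of calls among them is given. Of the called ORR1A loci whose P5 and P4 libraries did not overlap, 107 were higher and 49 lower, beside 2136 higher (2.11%) and 764 lower (0.753%) of all tested loci. In F3, 28 of 4274 passed, all higher, beside 977 of 98076 (0.996%), beside 0.985% higher among all loci. With the replicate number as a block the count was 75, beside 2.2% of all loci. The difference of the TBT effect between P5 and P4 was tested too, and limma called 0 ORR1A loci in either generation, beside 0.000986% of all loci in F1 and 0% in F3, with 203 in F1 (4.32% of all loci) and 45 in F3 (1.39%) at an unadjusted p under 0.05. The F1 count called became 1 with the replicate number as a block (0.00592% of all loci), with a pseudocount of 4 units (0.0069%), and without P4 TBT library 45-5 or 47-3 (0.00393% each). In F3 the 45 became 278 with the block (6.42%), 445 without P5 TBT library 5 (10.2%) and 468 without the libraries that stood apart (10.2%), with 0 called in each. The edgeR likelihood ratio test called 6 (0.0592% of all loci) and 1 (0.0143%), and the quasi-likelihood test 0 in both.

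Among the called loci of F1 without overlap, the largest P5 to P4 differences lay outside genes. A locus there that was low in P4 could reach the minimum mean only through P5. Such differences and their p-values are therefore given as values, and no conclusion is drawn from them. An ORR1A2 element at chr19:53395902-53396209, 4107 bases from AC133451.1, had 0, 0 and 1.19 CPM in P4 and 1.68, 7.16 and 19.5 CPM in P5 (log2 difference 4.05, SE 0.41, limma adjusted p = 2.37e-09). In F3 P4 it had 0 in 7 of 9 libraries, and in P5 0, 11.9 and 38.5 CPM (4.07, SE 0.94, adjusted p = 0.0226). An ORR1A2-int element at chr1:180872976-180873920, 958 bases from Gm18036, had 0, 2.52 and 5.78 CPM in F1 P4 and 12.9, 24.7 and 68.6 CPM in F1 P5 (3.96, SE 0.48, adjusted p = 8.59e-08). In F3 it had at most 8.31 CPM in P4 and 0, 25 and 85.3 CPM in P5 (4.89, SE 1.01, adjusted p = 0.01), and no somatic library had a read there. At both loci the P4 and P5 libraries overlapped in F3. The 2 largest decreases without overlap were the intronic Med15 elements described above, at -0.96 and -0.95 on the log2 scale (SE 0.14, adjusted p = 3.41e-06 and 4.24e-06), and their values were the same in 22 of the 23 germline libraries of F1.

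In F3 the called loci without overlap were 3, all higher, beside 90 of 98076 loci (0.0918%), of which the smallest change is named beyond the rule for the 2 largest, after its values were seen. An ORR1A2 element overlapping an exon of Dynlt1c, a dynein light chain gene, at chr17:6609399-6609719 had 0, 0.938 and 7.01 CPM in P4 and 7.65, 19.4 and 46.3 CPM in P5 (log2 difference 4.25, SE 0.88, limma adjusted p = 0.0102). An ORR1A4 element overlapping an exon of Usp7, a deubiquitinase gene, at chr16:8792152-8792459 had 0, 1.36 and 2.93 CPM in P4 and 5.77, 26.8 and 46.3 CPM in P5 (4.17, SE 0.84, adjusted p = 0.00947). The third was an ORR1A1 fragment of 80 bases at chr2:3050209-3050288, outside genes, with 0, 0 and 1.4 CPM in P4 and 1.62, 8.20 and 42.1 CPM in P5 (3.83, SE 0.83, adjusted p = 0.0142). All 3 were also higher in P5 in F1, by 3.15, 1.97 and 2.83 on the log2 scale (adjusted p = 2.96e-09, 2.65e-05 and 8.52e-07). Here too a locus low in P4 could be tested only through P5, so these differences are given as values.

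F0 exposure to TBT was then compared with DMSO within each population and generation. No ORR1A subtype total passed in limma or in the edgeR quasi-likelihood test in any of the 6 comparisons, and of all species 0 of 660 to 668 passed in each. At an unadjusted p under 0.05 there was 1 ORR1A subtype in F1 P4 (7.68% of all species) and 1 in F1 P5 (4.79%), and 0 in the other 4 comparisons. In F1 P4 the differences of the 10 subtypes ran from -0.017 to 0.11 on the log2 scale, in F1 P5 from -0.0038 to 0.15, in F1 P6 from 0.026 to 0.16 and in F3 P6 from -0.030 to 0.081. They were wider from -0.51 to -0.15 among F3 P4 libraries and from -0.39 to 0.096 among F3 P5 libraries. Without the libraries that stood apart the F3 P4 values ran from -0.24 to 0.20 and the F3 P5 values from -0.057 to 0.17, with 0 subtypes called in either and 3 in P4 and 0 in P5 at an unadjusted p under 0.05, beside 16.1% and 0.904% of all species. Outside genes limma again called 0 subtypes in each comparison, with 3 at an unadjusted p under 0.05 in F1 P5, beside 10.1% of all species. All 10 were higher there, from 0.17 to 0.56, and the median over all species was 0.26. In F1 P5 the median Sertoli sum was 86.8 CPM in DMSO and 43.5 CPM in TBT, and its part was not tested. The F1 P4 values ran from -0.61 for ORR1A0-int to 0.090 for ORR1A3-int, with 9 of 10 below 0 and a median over all species of -0.075. There the Leydig and interstitial sum given above was also lower in TBT by its median, and its part in these values was not tested. In F1 P6 the values ran from 0.28 to 1.49 and all 10 were higher, with a median over all species of 1.22. The germ cell sum there was 24.2, 27.8 and 32.3 CPM (lowest, median, highest) in DMSO and 28.9, 41.1 and 48 CPM in TBT, and its part was not tested. Without TBT libraries 7 and 8 they ran from -0.041 to 0.57, 8 of 10 were higher, and the median over all species was 0.31. The F3 P4 values ran from -0.64 to 0.23, with 4 of 10 above 0 (all species -0.067), and from -0.94 to 0.16, with 2 of 10 above 0 (all species -0.36), without TBT libraries 5 and 9. In F3 P5 all 10 were below 0, from -0.92 to -0.11 (all species -0.41), but without the 3 libraries that stood apart they ran from -0.015 to 0.69, with 8 of 10 above 0 (all species 0.43). In F3 P6 they ran from -0.011 to 0.34, with 8 of 10 above 0 (all species 0.036). The difference of the TBT effect on these totals between P5 and P4 passed for 0 of 10 subtypes in limma in either generation. At an unadjusted p under 0.05 there were 3 in F1 (10.7% of all species), or 5 with the replicate block (14.8%), and 0 in F3 (1.66%). Leaving out 1 library gave 0 (without P5 DMSO library 48-4) to 7 (without P5 DMSO library 44-1) in F1, with 0 called in each.

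**Figure D5:**
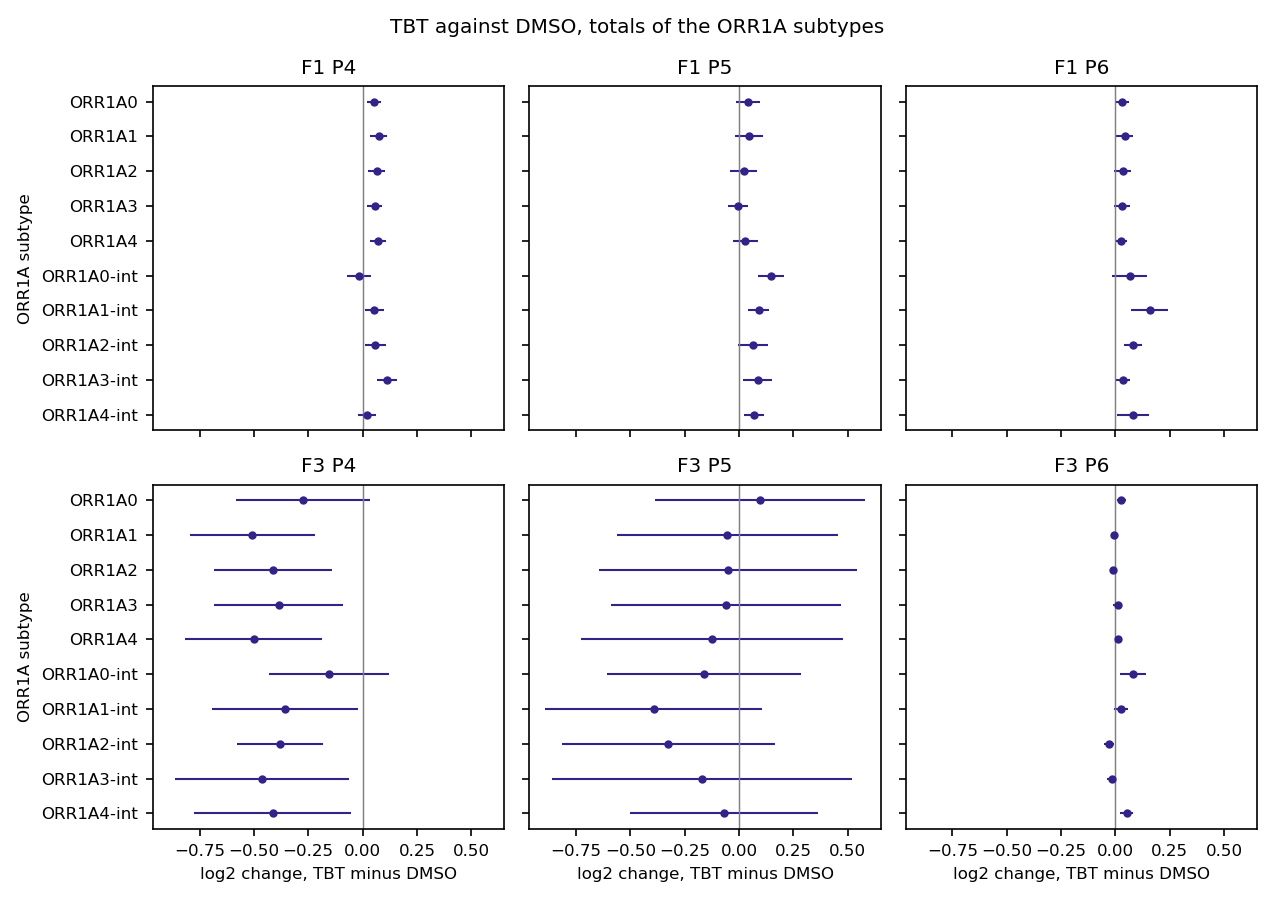
Log2 difference of TBT against DMSO for the 10 ORR1A subtype totals in the 6 comparisons, 1 point per subtype on the horizontal log2 axis with its standard error as a bar. No value is above 0.16 in F1 or 0.081 in F3 P6, and the bars are longest in the F3 germline.

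Among single loci, limma called 0 of 3955, 5238 and 4003 tested ORR1A loci in F1 P4, P5 and P6, and 0 of 3673, 4617 and 4655 in F3. Over all LTR loci the called shares were 0%, 0.0106% and 0.00341% in F1, and 0%, 0% and 0.0343% in F3. In F1 P5, 0.0996% of all loci outside genes were called, each higher. For F3 P6, 0.02% of all loci were called higher and 0.0143% lower, and among loci outside genes 0.0791% higher and 0.316% lower. At an unadjusted p under 0.05 there were 285, 384 and 137 ORR1A loci in F1 and 54, 49 and 418 in F3, where the shares over all loci were 7.09%, 6.89%, 3.68%, 1.65%, 1.01% and 7.96%. The edgeR quasi-likelihood test called 0 ORR1A loci except in F3 P6, where it called 2, beside 0.0582% of all loci. The study's methods name the likelihood ratio test of edgeR. On these loci it called 7 ORR1A loci for F1 P4 (0.0971% of all loci), 13 for F1 P5 (0.319%) and 8 for F1 P6 (0.0488%). The F3 counts were 0 of P4 (0.00463% of all loci), 174 of P5 (3.03%) and 14 of P6 (0.32%). The 174 became 26 without the 3 libraries that stood apart (0.482%), and the balance moved from 37 higher and 137 lower to 12 and 14. The median log2 difference over tested ORR1A loci was -0.70 in F3 P4, as it was -0.69 over all loci, and it became 0.40 (all loci 0.37) without TBT libraries 5 and 9.

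The ORR1A loci outside genes with the smallest p are given as values, since none passed in limma. In F1 P5 an ORR1A2 element at chr14:8079289-8079578, 789 bases from Rpp14, had 0 in all 4 DMSO libraries and 0.824, 1.45 and 2.65 CPM (lowest, median, highest) in the 7 TBT libraries, 63 reads in all. The groups did not overlap, and the adjusted p was 0.132. An ORR1A1 element at chr10:4562622-4562968, 391 bases from Ccdc170, had 1.87, 2.86, 4.78 and 9.47 CPM in DMSO and 1.11, 1.74 and 3.02 CPM in TBT, with overlap (-0.99, SE 0.38, adjusted p = 0.616).

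In F1 P4 an ORR1A4-int element at chr13:74576580-74577722 had 0.985, 2.32, 4.27, 9.70 and 9.83 CPM in DMSO and 4.18, 9.93 and 24.6 CPM in TBT, with overlap (1.30, SE 0.45, limma adjusted p = 0.635). An ORR1A2-int element at chr7:38078247-38079198 had 0, 2.29, 2.40, 5.42 and 6.01 CPM in DMSO and 0, 0 and 2.00 CPM in TBT (-2.55, SE 0.82, adjusted p = 0.616). Both pairs of groups overlapped. In F1 P6 an ORR1A1-int element at chr5:14981781-14983549 had 0 in all 5 DMSO libraries and 0, 1.54 and 12.5 CPM in TBT (adjusted p = 0.999). An ORR1A3 element at chr7:24226162-24226498, near Zfp109, had 1.72, 2.60, 3.30, 4.34 and 6.24 CPM in DMSO and 0.960, 1.63 and 2.30 CPM in TBT (-0.97, SE 0.35, adjusted p = 0.999).

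In F3 P6 an ORR1A0-int element at chr2:175386159-175387944, near Zfp968, had 0.450, 0.992, 2.58 and 4.14 CPM in DMSO and 3.49, 4.14, 4.19, 4.92 and 5.92 CPM in TBT (1.42, SE 0.40, limma adjusted p = 0.293). An ORR1A1-int element at chr13:67250575-67252514, near Zfp458, had 1.35, 1.59, 2.98 and 3.94 CPM in DMSO and 0, 0.828, 0.900, 0.931 and 1.53 CPM in TBT (-1.54, SE 0.54, adjusted p = 0.471). At each of the 2 loci the ranges of the groups overlapped by their nearest values. In F3 P4 an ORR1A4 element near Bloodlinc (chr11:102379162-102379484) had 0 in all 4 DMSO libraries and 0, 0.663, 4.66, 5.63 and 8.15 CPM in TBT (adjusted p = 0.87). An ORR1A0 element at chr17:17340206-17340541 had 1.98, 3.04, 4.40 and 12.1 CPM in DMSO and 0, 0, 0, 1.16 and 2.11 CPM in TBT (adjusted p = 0.87). In F3 P5 an ORR1A2-int element 7 bases from Flcn (chr11:59789537-59791401) had 0 in all DMSO libraries and 0, 2.40, 6.26, 11.5 and 19.9 CPM in TBT. Another at chr12:44211929-44213116 had 8.31, 16.6, 16.7 and 92.6 CPM in DMSO and 0, 0, 2.40, 6.15 and 10.9 CPM in TBT, and neither of these 2 passed (adjusted p = 1). The last of these loci was higher in P5 than in P4 in F1 (log2 difference 3.69, SE 0.42, limma adjusted p = 2.14e-08).

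An ORR1A element can also hold the annotated start of a host transcript. GENCODE places a transcript start in 186 of the 40671 loci (0.457%), of which 62 belong to protein-coding genes. The share over other LTR loci was not counted. The share was 1.08% (23 loci) in ORR1A0, 0.615% in ORR1A1, 0.405% (60 loci) in ORR1A2, 0.251% in ORR1A3 and 0.566% (44 loci) in ORR1A4. The following were chosen after their values were seen, as the 2 highest means in F1 P4 and the 2 highest in F1 P6. An ORR1A3 element at a start of Rae1, an mRNA export factor (chr2:173011365-173011670), had means of 50.1, 41.5 and 30.8 CPM in F1 P4, P5 and P6, and 65.4, 37.4 and 30.2 CPM in F3. An ORR1A4 element at a start of Ciao1, a component of cytosolic iron-sulfur assembly (chr2:127245976-127246273), had 40.9, 32.7 and 11.3 CPM in F1 and 45, 27.7 and 12 CPM in F3, higher in germline than in somatic means. An ORR1A4 element at a start of the pseudogene Apc-ps1 (chr5:76196385-76196669) had 10.7, 14.3 and 49.5 CPM in F1 and 9.26, 12.5 and 43.9 CPM in F3, highest in the somatic means. An ORR1A3-int element at a start of Grin2d, an NMDA receptor subunit (chr7:45878134-45879266), was also highest there, with 2.07, 2.47 and 42.2 CPM in F1 and 5.29, 3.69 and 37.7 CPM in F3. Whether these reads began in the element was not tested.

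Methylation was read in P6 cells from MBD counts in windows of 100 bases, which the deposited counts give for a small part of the genome. Windows with at least 50 bases in an ORR1A locus numbered 846 of 154773 in F1 (0.547%) and 883 of 164382 in F3 (0.537%). Most of the 40671 ORR1A loci thus had no such window, and their methylation was not read. The libraries held 701493 to 1913353 counts in F1 and 1105120 to 1556376 in F3. The number of CpG sites starting in a window was 0 in 68.2% of ORR1A windows against 52.9% of the others in F1, and in 68.0% against 52.9% in F3. The mean number was 0.397 against 0.820 in F1 and 0.399 against 0.815 in F3.

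Mean capture was higher with more CpG sites in ORR1A windows and in others. In DMSO-F1 cells the mean per ORR1A window was 3.42 ± 0.241 CPM at 0 sites, 5.30 ± 0.565 at 1, 8.22 ± 0.587 at 2 and 11.8 ± 1.70 at 3 or more, a class of 8 ORR1A windows (SD, n = 3). The other windows had 4.37 ± 0.158, 7.08 ± 0.0740, 10.3 ± 0.307 and 13.2 ± 0.934 CPM. In DMSO-F3 cells ORR1A windows had 2.55 ± 0.237, 4.42 ± 0.271, 8.58 ± 0.405 and 11.7 ± 0.722 CPM, and the others 3.54 ± 0.144, 6.67 ± 0.0788, 10.8 ± 0.249 and 15.1 ± 0.960 (n = 5). ORR1A windows thus had lower means than others at each number of sites, and the ranges of the libraries did not overlap at 0, 1 and 2 sites in DMSO cells of either generation. This difference was not tested. TBT cells had 3.34 ± 0.135, 5.14 ± 0.174, 8.46 ± 0.421 and 12.1 ± 1.28 CPM in F1 (n = 4) and 2.56 ± 0.397, 4.33 ± 0.592, 7.95 ± 0.601 and 11.4 ± 1.01 in F3 (n = 7). The ranges of the DMSO and TBT libraries overlapped at each number of sites. By subtype they overlapped for 8 of 10 in F1 and for all 10 in F3. The exceptions in F1 were ORR1A0-int, with 2.92 to 3.44 CPM per window in the 3 DMSO libraries and 2.74 to 2.82 in the 4 TBT libraries (40 windows), and ORR1A1-int, with 3.78 to 4.23 against 3.29 to 3.73 (60 windows). Both were lower in the TBT libraries, and the difference of these means was not tested. How many other LTR species lacked overlap was not counted, so both are given as values only.

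Only 73 of the 846 ORR1A windows in F1 (8.63%) and 107 of the 883 in F3 (12.1%) had counts high enough for a test, against 22.3% and 28.9% of all windows. The edgeR quasi-likelihood test called 0 ORR1A windows in either generation, with 1 in F1 and 9 in F3 at an unadjusted p under 0.05, and DESeq2 called 0 as well. Of all tested windows 11 of 34559 passed in F1 (0.0318%) and 0 of 47563 in F3 (0%), and 5.01% and 5.19% had an unadjusted p under 0.05. The F3 window with the smallest p among those lower was in ORR1A2 at chr8:87640501-87640600, with 18, 23, 11, 18 and 13 counts in DMSO and 7, 10 and 15 (lowest, median, highest) in TBT (log2 difference -0.64, quasi-likelihood adjusted p = 0.916). Among those higher it was in ORR1A3-int at chr9:88837401-88837500, near Trim43c, with 13, 13, 5, 8 and 10 counts in DMSO and 11, 16 and 18 in TBT (0.64, adjusted p = 0.916). In F1 an ORR1A2 window at chr4:59309901-59310000 had 5, 7 and 12 counts in DMSO and 20, 23, 8 and 33 in TBT (0.57, adjusted p = 0.982). Another at chr5:148640201-148640300 had 16, 7 and 19 in DMSO and 18, 23, 10 and 19 in TBT (-0.49, adjusted p = 0.995). These counts are not scaled for depth. The groups overlapped at each of these 4 windows.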

How the data were processed

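RNA of 62 libraries and methylated DNA of 19 were analysed, grouped by their titles. The members and lists were chosen with earlier results of these data known. For RNA, the authors trimmed reads with Trim Galore, aligned them with STAR to GRCm38, counted LTR loci with a modified ERVmap and applied TMM, and the deposited CPM are a normalized signal per locus. How reads matching several copies were handled is not given in the sources used here. Of the values above 0, 100% in every mERV file were whole multiples of the library's smallest value (tolerance 0.0001), so reads were recovered. The planned log-scale test stayed the main one, with edgeR count tests as alternatives. The deposited MBD tables hold raw read counts per 100-base window, and their other column, CF, equalled the number of CpG sites starting in the window in 100% of windows.

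RNA values entered limma 3.58.1 (R 4.3.3, trended variance) on the log2 scale after adding 1 unit, the value of 1 read. This understates changes of low loci. The minimum mean was 5 units, and results were called under a Benjamini-Hochberg false discovery rate of 0.05 across every locus or species. For totals, the values of a species were added up. MBD counts went through TMM, filterByExpr and the edgeR 4.0.16 quasi-likelihood test, with windows assigned at 50 or more bases of overlap. Alternatives were pseudocounts of 0.25 and 4 units, no filter, a minimum of 20 units, common totals, totals over other loci, edgeR and DESeq2 1.42.0 tests, other overlaps, a replicate block and leaving out libraries. Loci were named as the 2 largest called changes in each direction without overlap or, where none passed, the smallest p in each direction outside genes, and as the 3 highest per kb outside genes in each population (at least 100 bases). The limma fit of loci was tried on data simulated for F1 P4, F3 P4, F3 P6 and F1 P5 against P4, and the MBD fit for both generations. No minimum of recovered changes was required for F3 P4. Species totals, the edgeR tests of RNA and DESeq2 were not tried on simulated data. Genes came from GENCODE vM21, overlaps from bedtools 2.31.1 and sequences from the RefSeq copy of GRCm38.

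Depth at LTR loci was 246520 to 8161548 reads, and 1 read was worth up to 0.957 CPM, which limits the precision of single loci outside genes. Replicate pairs differed by a chi-square per degree of freedom of at least 1.60, and none was taken as 1 library. P4 and P5 libraries share numbers in their titles, and both gates were sorted from the same cell suspensions, so a number probably marks 1 suspension, although no source used here says so. Same-numbered libraries correlated between -0.0055 and 0.278 in F1 (5 of 11 highest with their own number) and between -0.088 and 0.460 in F3 (4 of 9). The fits without the number as a block stayed the main ones, and blocked values stand beside results whose call or count they moved.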

Additional observations from a re-analysis of the deposited data

Results flagged for a closer look

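Both shares, of LTR reads in ORR1A and of ORR1A reads outside genes, were examined in each RNA group for a library far from the others. Of 24 sets of values 4 had one, and chance gives about 1 in 20. In TBT-F3 P4, library 9 had the lowest share of LTR reads in ORR1A, 3.92%, with 4.33% next. In TBT-F3 P5, library 5 had the highest share, 4.93%, with 4.50% next, and also the highest share of ORR1A reads outside genes, 28.2%, with 10.3% next. In TBT-F3 P6, library 8 had the lowest share of LTR reads in ORR1A, 4.40%, with 4.45% next. The germline libraries named had 1187234 (P4) and 246520 (P5) reads at LTR loci, and the part of depth in these values was not tested.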

How the results depend on the processing

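Of 469 alternative counts of calls, 433 lay within 1.5 times the reported count. For TBT against DMSO, where limma called 0 ORR1A loci in each comparison, the edgeR likelihood ratio test called 7 in F1 P4 (0.0971% of all loci at the same setting, as in the parentheses that follow), 13 in F1 P5 (0.319%), 8 in F1 P6 (0.0488%), 174 in F3 P5 (3.03%), or 26 without the libraries that stood apart (0.482%), and 14 in F3 P6 (0.32%). Without a filter limma called 35 in F1 P5 (0.202%), 3 in F1 P6 (0.00585%) and 1 in F3 P6 (0.0367%), with a pseudocount of 4 units 1 in F3 P6 (0.0506%), and the quasi-likelihood test 2 in F3 P6 (0.0582%). For P5 against P4 in F1, a minimum mean of 20 units gave 1109 ORR1A loci (57.5%), of which 219 were higher and 890 lower, and a common library total gave 971 higher and 473 lower (30.7%). In F3, against 28 loci, the counts were 45 with a pseudocount of 4 units (1.22%), 15 without a filter (0.0949%), 7 with a minimum of 20 (0.583%), 52 with a common total (1.4%), 60 with a common total over loci in genes (1.62%), 293 without the libraries that stood apart (6.4%), 210 of them higher and 83 lower, 297 by the quasi-likelihood test (6.56%) and 408 by the likelihood ratio test (9.25%). The 0 subtype totals called in F3 became 4 with a common total (18.3% of species), 10 outside genes (58.9%), 3 without the libraries that stood apart (21.3%) and 5 by the quasi-likelihood test (20.1%). The cause of these changes was not tested.

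Leaving out 1 library at a time gave 0 to 2 TBT loci in F1 P5 (2 without DMSO library 48-4, 0.0763% of all loci), 0 to 5 in F3 P6 (5 without DMSO library 2, 0.138%) and 0 in the other 4 comparisons. P5 against P4 gave 1566 (without P5 DMSO library 43-5, 33.4%) to 1792 loci (without P4 DMSO library 44-3, 37.8%) in F1 and 10 (without P5 TBT library 9, 0.395%) to 124 (without P5 TBT library 5, 3.06%) in F3. Called subtype totals were 8 in F1 (60.4% to 67% of species) and 0 to 1 in F3 (1.96% to 8.6%), and outside genes 10 in F1 (92.7% to 94.1%) and 9 to 10 in F3 (48.7% to 70.8%), with 0 for TBT totals over all loci. ORR1A windows called in the MBD counts were 0 under every alternative run, beside 0% to 0.0318% of all windows in F1 and 0% in F3. With the number as a replicate block, 2015 F1 (43%) and 75 F3 (2.2%) loci were called, the subtype totals called stayed at 8 and 0 (71.4% and 4.98% of species), and those outside genes at 10 in both. Leaving out the libraries that stood apart and scaling over loci in genes, as well as levels without a highest locus, were chosen after seeing the data. Depth limits most loci outside genes, which had too few reads for a test.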
